A study of Mus musculus with 8 samples.

Results

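Ankrd11 (ENSMUSG00000035569.17) lies on the minus strand of chromosome 8, at chr8:122883822-123042277 of mm10. Its start clusters were taken as the CAGE tag clusters on the strand of the gene whose dominant TSS (the most used start site of a cluster) fell between 500 bp upstream of the gene and its end. This rule gave 43 of the 32857 clusters of E14, 45 of the 33005 of Pwwp2a/b DKO clone A1 and 44 of the 32870 of DKO clone C7. The gene was chosen by its number of exonic clusters in these tracks, so that number is given as a description.

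Ankrd11 encodes a large chromatin-associated protein with ankyrin repeats near its amino terminus, which binds p160 coactivators and histone deacetylases and acts as a regulator of transcription. Heterozygous loss of the human gene causes KBG syndrome, a developmental disorder. Most RNA polymerase II transcripts begin at promoters, usually at a purine that follows a pyrimidine. Initiation within gene bodies is limited by chromatin marks such as H3K36me3 and by the deacetylases that these marks recruit.

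CAGE-seq captures the cap of RNA and reads the 5′ ends of the cDNA, and here it was applied to nuclear RNA with random priming and no PCR step. Wild-type E14 mouse embryonic stem cells (3 libraries) were compared with Pwwp2a/b double knockout cells, which lack the H3K36me3 readers PWWP2A and PWWP2B, as clone A1 (2 libraries) and clone C7 (3 libraries). All were grown in serum with LIF on gelatine, and each knockout line is 1 clone. The libraries of a line were merged before clusters were called, so each line is 1 track, the tracks hold positions without signal, and neither the spread between replicates nor the depth behind a cluster can be read from them.

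All 10 markers of embryonic stem cells that were listed, among them Pou5f1, Sox2 and Nanog, had a promoter cluster in each line. Of 14 markers of other cells that such a culture could hold, 6 had a promoter cluster in each line (Sox17, Sox7, Sox1, Col1a1, Col1a2 and Thy1) and the other 8 had none. Over all coding genes, 11167 of 21950 had a promoter cluster in E14. Pwwp2a kept 1 promoter cluster and 1 intronic cluster in every line and Pwwp2b had no cluster in any line, E14 included, so the clusters do not check the knockout labels. Presence of a cluster gives no level, and the part of other cells in the results was not tested.

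The sequences that carry the main contrast within the gene are the starts at its promoters and the starts inside its longest exon. They are RefSeq or GENCODE sequence of the minus strand of GRCm38 (mm10), 5′ to 3′, with 15 bases before the dominant TSS of E14 and 15 from it onwards. Capitals mark the 2 bases before the start and the start itself.
Main promoter, chr8:123042240-123042269: ctgggtcctggagCCAgaggccgcccgcga
Second promoter cluster, chr8:123042077-123042106: tcccgccggccccGCActcgccgcagcctc
Promoter cluster in exon 3, chr8:122915982-122916011: agatcaagtaaggGGAggagaacgatgccc
Exon 9, chr8:122893757-122893786: aagacttctcagaGAGaaaggatgacagga
Exon 9, chr8:122894033-122894062: cccatgcagcgcgGGAaaaggagaaaaagg
Exon 9, chr8:122893466-122893495: gaaaggacaagaaGGAaaaaatggaaaaga
Exon 9, chr8:122893950-122893979: aagtccagcgagaGGGagagaagtgacaag
Exon 9, chr8:122894169-122894198: ggccgggacaggaGGGatgggcggattcgg
Exon 9, chr8:122895198-122895227: ccgtcagagaagaGGAgctccttccacccc
The 6 starts in exon 9 belong to the widest exonic clusters of E14. Both clusters at the 5′ end of the gene started at an A that follows a C, whereas each of the 6 exonic starts followed 2 purines.

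Clusters of Ankrd11 were split between its promoters, a few intronic positions and a single coding exon. In E14, 3 clusters lay no more than 500 bp from the start of an annotated same-strand transcript and were counted as promoter clusters, 36 lay in exons (83.7%, 95% Wilson interval 70.0% to 91.9%, which covers counting error only) and 4 in introns. A1 had 3 promoter, 38 exonic and 4 intronic clusters, and C7 had 3, 37 and 4. All exonic clusters of all lines lay in exon 9 of Ankrd11-202, the annotated coding transcript of 13 exons and 8455 bases.

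**Figure D1:**
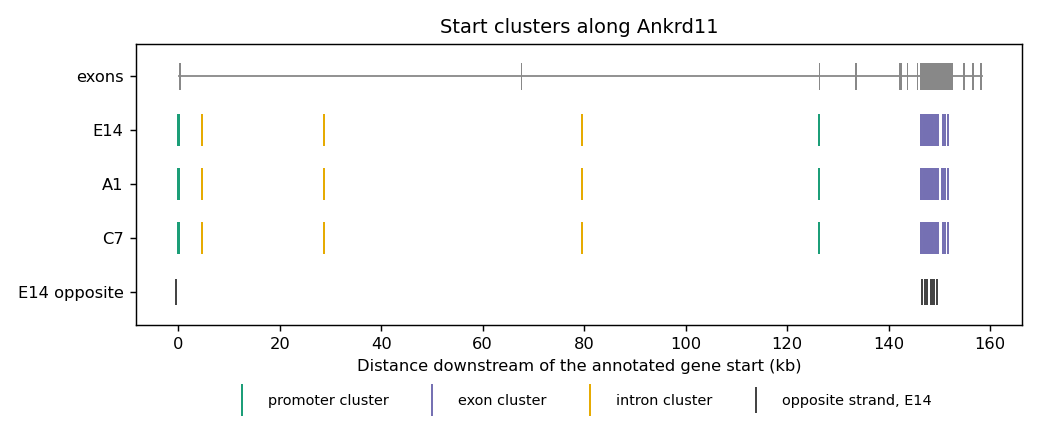
Dominant TSSs of Ankrd11 clusters in E14, A1 and C7 by distance downstream of the annotated gene start (kb), coloured by category, with the exons of Ankrd11-202 above and the clusters of the opposite strand of E14 below. The 36 exonic clusters of E14 crowd into the 1 wide exon, while 3 promoter and 4 intronic clusters are spread over the rest of the gene.

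The main promoter cluster spans chr8:123042231-123042364, a width of 134 bp, at the annotated start of Ankrd11-207. Its dominant TSS was at 123042254 in E14, A1 and C7, 23 bp downstream of that start. The interquantile region, which holds the signal between quantiles 0.1 and 0.9 of a cluster, measured 44 bp in E14, with 46 bp for A1 and 45 bp for C7. The dominant TSS of this cluster was therefore at the same base in the 3 lines, and its interquantile width varied by 2 bp. It is called the main promoter for its width and position, since the tracks hold no signal to rank promoters by use.

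A second cluster of 3 bp, chr8:123042091-123042093, lay 71 bp upstream of the start of Ankrd11-202. Its dominant TSS was 123042091 in E14 and A1 and 123042093 in C7. Another, chr8:122915992-122915996, lay in exon 3 and had its dominant TSS at 122915996 in every line. It is counted as a promoter cluster because the model Ankrd11-201 begins 9 bp downstream of it, and unlike the other promoter clusters its start followed 2 guanines. The annotated starts of Ankrd11-203, Ankrd11-204, Ankrd11-205 and Ankrd11-206 had no cluster within 500 bp in any line. Clusters at annotated starts were thus those of the 5′ end and the one in exon 3. Whether the other annotated starts were used below the limit of calling cannot be told from the tracks.

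The RefSeq promoter window of Ankrd11, chr8:123042235-123042534, had a GC content of 70.3%, 36 CpG dinucleotides and an observed to expected CpG ratio of 0.974. It held 4 matches to the core of the GC box (GGGCGG), counting both strands, and 35.7% of 32851 promoter windows of the same length held at least 1. It also held 4 matches to the CCAAT box, which was present in 37.4% of the windows. The TATA box sequence searched (TATAAA), present in 13.6% of the windows, had 0 matches. Exon 9 had a GC content of 54.5% and an observed to expected CpG ratio of 0.417. As a whole the exon was far less rich in CpG than the promoter window, and CpG was not counted within its clusters. The opposite strand had a cluster upstream of this promoter in every line. Its dominant TSS, 123042621, was 367 bp from the main start.

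The 4 intronic clusters were found at the same spans in each line. Those at chr8:123037561-123037562 and chr8:123013466-123013467 were 2 bp wide. The other pair lay close together, at chr8:122962672-122962694 and chr8:122962643-122962649, 12079 and 12124 bp downstream of the start of Ankrd11-204. Only the latter pair remained when an interquantile width of at least 3 bp was required, in each line.

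Exon 9, chr8:122889639-122896156, is 6518 bp long and wholly coding. It makes up 4.11% of the gene body and 77.1% of Ankrd11-202, and no other exon of that transcript carried a cluster except exon 3. Per kb the exon held 5.52 clusters in E14, and 5.83 and 5.68 in clones A1 and C7, which covered 945 bp (14.5%), 947 bp and 946 bp. Dominant TSSs began 195 bp from the 5′ end of the exon and ended 5609 bp from it in every line, which corresponds to codons 363 to 2168 of 2643.

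The clusters were not spread evenly over the exon. Split into a 5′ and a 3′ part of 3259 bp each, it held 27 of the E14 clusters in the 5′ part and 9 in the 3′ part, with 28 and 10 in A1 and 28 and 9 in C7. By windows of 500 bp, the stretch up to 4000 bp held from 2 to 7 E14 clusters per window and everything after it from 0 to 2. Cover was highest from 2001 to 2500 bp, where 5 clusters covered 324 bp. The 5′ part consisted of 63.3% purines and the 3′ part of 52.0%, while positions that follow 2 guanines numbered 246 and 218.

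Neighbouring clusters of the exon were close. The gap from the end of one to the start of the next had a median of 46 bp in E14 and A1 and 43 bp in C7. The smallest was 20 bp in each line, which is also the smallest gap between any same-strand neighbours in each track and so belongs to the clustering rather than to the exon. In E14, 18 of 35 gaps were under 50 bp and the largest was 914 bp. When clusters within 100 bp were merged, 18 clusters of the gene remained in each line.

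**Figure D2:**
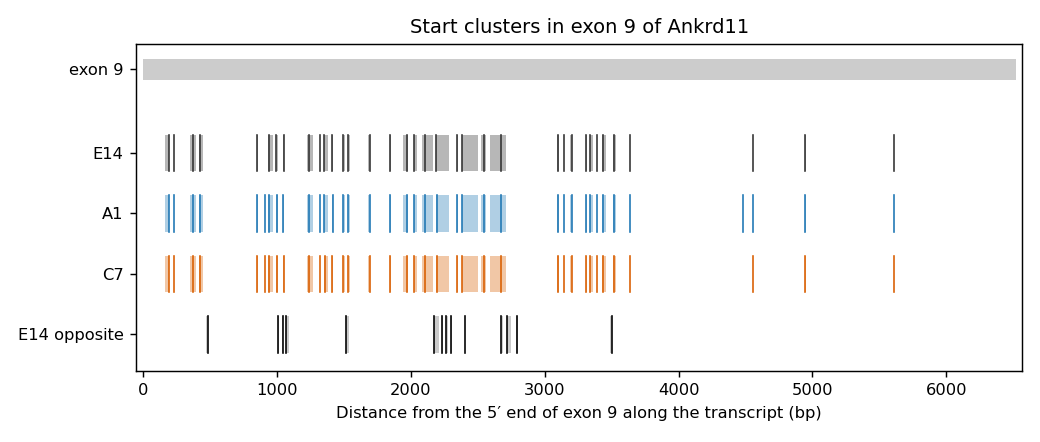
Spans (shaded) and dominant TSSs (vertical lines) of the clusters in exon 9 of Ankrd11 by distance from the 5′ end of the exon (bp), for E14, A1, C7 and the opposite strand of E14. The lines show almost the same positions, with 27 of 36 E14 clusters in the 5′ part of the exon (up to 3259 bp), and 13 of the 14 opposite-strand clusters of E14 lie there too.

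Exonic clusters of Ankrd11 included broad ones. The median of their interquantile widths was 12.5 bp for E14, with quartiles of 3 and 25.75 bp, a range of 2 to 82 bp and a 95% interval of the median of 5 to 22 bp, and it was 12 bp for A1 and 12 bp for C7. Over all 4260 exonic clusters of E14 the median was 3 bp (quartiles 2 and 15), and over all promoter clusters it was 20 bp. In the other genes rich in exonic clusters the median was 9 bp for Mki67, 3 bp for Tet1, 9 bp for Akap12 and 6 bp for Srrm2, and all but that of Tet1 lie within the interval of Ankrd11. Widths of at most 10 bp made up 44.4% of the exonic clusters of Ankrd11 and 68.1% of all exonic clusters. The clusters of 1 gene are not replicates, so these values describe the gene and no test was made.

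The widest exonic cluster, chr8:122893658-122893772, measured 82 bp in E14 and 99 bp in both A1 and C7. The next, chr8:122893987-122894069, measured 74, 75 and 74 bp. Another, chr8:122893447-122893565, measured 72, 73 and 64 bp in the same order. These 3 and the cluster of 62 bp at chr8:122893873-122893964 lie between 2001 and 3000 bp from the 5′ end of the exon. At the other end of the range, 8 of the 36 E14 clusters were 2 bp wide, the narrowest of that line.

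**Figure D3:**
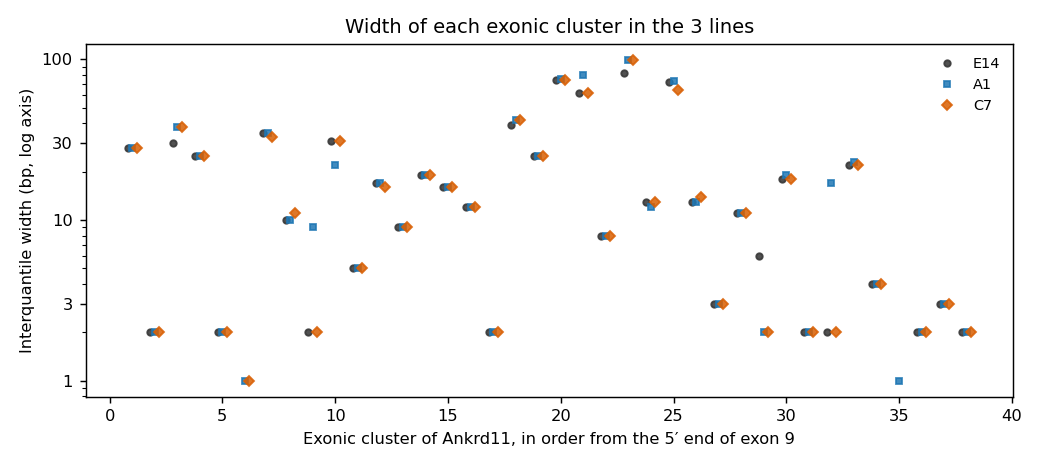
Interquantile width (bp, log axis) of each exonic Ankrd11 cluster in order along exon 9, with 1 point for each line that had the cluster. Widths run from 1 to 99 bp and the points of the 3 lines mostly coincide.

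Each of the 43 E14 clusters was overlapped by a cluster in A1 and in C7, where over all E14 clusters 99.3% were overlapped in A1 and 99.3% in C7. All 43 had the same start and end in the 3 lines. Over all clusters shared by the lines 98.5% had the same bounds, so identical spans were common to the tracks as a whole. The methods of the study include aggregation of clusters into consensus peaks, and whether the spans of the 3 lines were set jointly is not given in the sources used here, so a shared span is not a separate measurement in each line.

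Clusters absent from E14 were few. A cluster of 1 bp at 122895244 was present in A1 and C7, and a cluster of 1 bp at 122891674 was present in A1 alone. This is 2 of 45 clusters in A1 and 1 of 44 in C7, where 1.11% of all A1 clusters and 0.776% of all C7 clusters had no overlap in E14. Both positions follow 2 guanines in exon 9, as the capitals, used as above, show.
Absent from E14, chr8:122895230-122895259: aacaccgaaaaagGGGtgtcctgcagagcg
Absent from E14 and C7, chr8:122891660-122891689: agttcagtgctggGGAcaagctgttcaggc

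The dominant TSS was at the same base in all lines for 33 of the 43 clusters. It differed from E14 in 6 clusters in A1, where 23.8% of all shared clusters differed, and in 8 clusters in C7, where 21.1% differed. Shifts were short, at most 8 bp, and none passed 10 bp. The dominant TSS lies within its cluster, so in clusters of 10 bp or less it could not shift by more than 10 bp. Among exonic clusters it differed in 5 of 36 in A1 (25.4% of all exonic clusters) and 6 of 36 in C7 (22.9%). In 4 clusters of the gene it differed in both clones (11.2% of all shared clusters), and in 3 of these both clones used the same new base (8.48%). These backgrounds were not matched for cluster width.

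At chr8:122895150-122895163 the dominant TSS moved from 122895159 in E14 to 122895151 in A1, and to 122895152 in C7, the longest shift downstream in the gene. At chr8:122894110-122894134 it was 122894134 in E14 and 122894128 in both clones, and at chr8:122893873-122893964 it was 122893964 in E14 and 122893962 in both clones. The last of these clusters was the fourth widest of the exon. The intronic cluster at chr8:123037561-123037562 moved by 1 bp. The sequences at the 6-bp shift are shown because the E14 start there was the only one in the exon at a pyrimidine-purine step, with the capitals as above.
E14 start, chr8:122894120-122894149: aggacctaaaggaGTGtgggttcgagagca
A1 and C7 start, chr8:122894114-122894143: taaaggagtgtggGTTcgagagcagcttca
The start used in the clones no longer had that step.

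Widths differed between lines more often than positions. Of the 43 clusters, 12 were wider in A1 than in E14 (background 20.3%) and 4 narrower (10.5%), and 6 were wider in C7 (18.5%) and 6 narrower (10.6%). In both clones, 4 were wider (12.5%) and 2 narrower (4.01%), and 23 had the same width in the 3 lines. Among the 36 exonic clusters, 10 were wider in A1, where 11.2% of all exonic clusters were, and 5 in C7, where 9.07% were. For exonic clusters of at least 3 bp in E14, 8 of 28 were wider in A1 against 12.7% of all such clusters, and 5 of 28 in C7 against 10.7%. These backgrounds were not matched for width, and the exonic clusters of Ankrd11 were wider than most. With 1 merged track per line the values have no replicate check, and the tracks do not show whether depth moved with it.

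The largest changes in width were gains. A cluster at chr8:122892701-122892724 was 2 bp wide in E14 and C7 and 17 bp in A1. The one at chr8:122893873-122893964 was 62 bp wide in E14 and C7 and 80 bp in A1. In contrast, the cluster at chr8:122894887-122894930 was 31 bp wide in E14 and C7 and 22 bp in A1. Of the exonic clusters, 3 were wider in both clones, each by the same amount in A1 and C7. They were the widest one, given above, chr8:122895759-122895805 with 30 bp in E14 and 38 bp in both clones, and chr8:122894174-122894216 with 39 bp in E14 and 42 bp in both clones.

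The bases at exonic starts of Ankrd11 differed from those at promoters. A pyrimidine followed by a purine at the start, the usual step of promoters, was found at 1 of 36 exonic dominant TSSs of E14 (2.78%, Wilson interval 0.492% to 14.2%) and at 0 of 38 in A1 and 0 of 37 in C7, which allow shares of up to 9.18% and 9.41% by the same interval. The share was 10.6% over all exonic clusters and 74.5% over all promoter clusters of E14, and 18.7% of all positions of exon 9 have such a step. Exonic starts of the gene therefore had the step less often than the exon offers it. In the other genes with the most exonic clusters, the E14 share was 9.62% in Mki67, 8.33% in Tet1, 2.33% in Akap12 and 3.57% in Srrm2. All of these lie within the interval of Ankrd11.

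In its place, 2 guanines stood directly before 26 of the 36 starts (72.2%, interval 56.0% to 84.2%), against 63.5% of all exonic and 10.9% of all promoter clusters. Only 7.12% of the positions of exon 9 follow 2 guanines. The count was 25 of 38 in A1 and 26 of 37 in C7. A start after 2 guanines cannot have the pyrimidine-purine step and always follows 2 purines, so these contexts are not separate results. Both bases before the start were purines in 34 of 36 starts, against 73.7% of all exonic clusters and 38.9% of the positions of the exon. The base before those was a purine in 36 of 36, against 88.3% of all exonic clusters and 57.7% of the positions. Ankrd11 had this context in common with exonic clusters as a class. In the other genes with the most exonic clusters, 2 guanines came before 55.8% of exonic starts in Mki67, 52.1% in Tet1, 72.1% in Akap12 and 71.4% in Srrm2. The bases counted here were chosen after bases at exonic starts of these data were known. Sequence of transcripts or RefSeq promoter windows covered 96.9% of all exonic and 86.3% of all promoter clusters of E14. Clusters outside both sources are not in these shares. Positions of 1 exon overlap and are not independent.

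**Figure D4:**
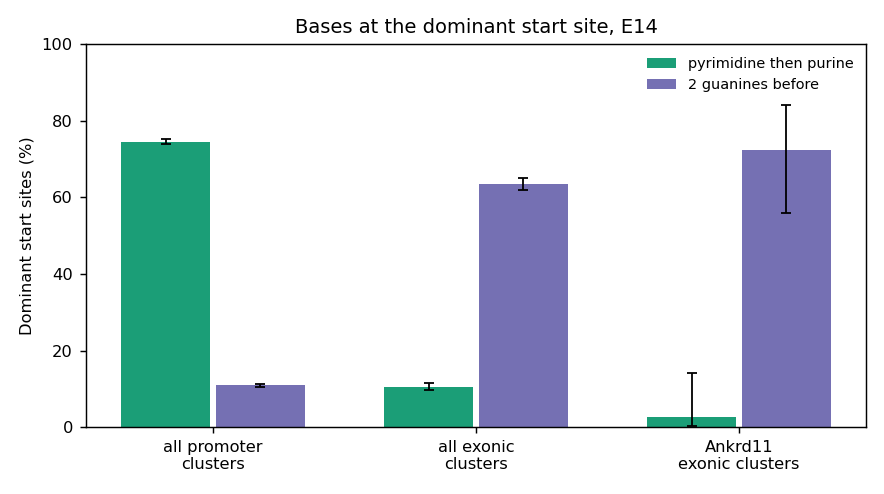
Share (%) of dominant TSSs of E14 at a pyrimidine followed by a purine and of those preceded by 2 guanines, for all promoter, all exonic and the 36 exonic Ankrd11 clusters, with 95% Wilson intervals as error bars. The first share falls from 74.5% at promoters to 2.78% in exon 9 of Ankrd11, and the second rises from 10.9% to 72.2%. A start preceded by 2 guanines cannot have the pyrimidine-purine step, so the 2 shares are not independent.

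Clusters also covered the purine-rich parts of the exon. Bases inside E14 clusters were 71.2% A or G and bases outside them 55.4%, where the whole exon has 57.7%. Inside clusters, A made up 35.9%, G 35.3%, C 17.9% and T 10.9%. The 5′ part of the exon, with more clusters, was also the part richer in purines, as given above. These shares count bases, so wide clusters weigh most, and 324 of the 945 covered bases lay from 2001 to 2500 bp. Bases outside clusters were not matched for place in the exon.

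Exon 9 also carried clusters on its opposite strand, with 14 in E14, 14 in A1 and 15 in C7. Only 1 more cluster of that strand lay in the window of the gene in each line, the one upstream of the main promoter. Their median interquantile widths were 12.5 bp for E14, 16 bp for A1 and 11 bp for C7, and in each line 7 of them overlapped a cluster of the Ankrd11 strand. Of the 14 in E14, 13 lay in the 5′ part of the exon. By annotation they fall in introns of 2 plus-strand genes, the antisense gene Gm45894 and the readthrough gene Gm20388. The 4 widest in E14 are shown on the plus strand, with capitals for the start and the base after it.
Opposite strand, chr8:122893419-122893448: tctctctgcacactcCTtgtctttcttttc
Opposite strand, chr8:122894624-122894653: cctttttgagtttctCTttgtcctctttga
Opposite strand, chr8:122893965-122893994: cctctcgctggacttCTctttgtacttgtc
Opposite strand, chr8:122893470-122893499: ttccattttttccttCTtgtcctttcctcc
These starts had another context than those of the Ankrd11 strand. In E14, 13 of the 14 began with C followed by T (92.9%, Wilson interval 68.5% to 98.7%), as did 13 of 14 in A1 and 13 of 15 in C7. Of all positions on that strand of the exon, 12.2% have these bases. Of 557 E14 clusters on the opposite strand of exons of any gene, 58.0% began with them. Starts after 2 guanines numbered 0 in E14, 1 in A1 and 2 in C7. A start at C cannot have a pyrimidine-purine step, so 13 of the 14 E14 starts could not have one. The step was found at 0 of the 14, which allows a share of up to 21.5%, beside 14.4% of the 557 and 18.7% of the positions. This value follows largely from the starts at C and is not a separate result, and a difference was not detectable. The bases C and T were chosen after these starts were seen.

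Among long exons, exon 9 of Ankrd11 stood near the top in density of clusters, which follows in part from the choice of the gene. Of 843 exons of at least 5000 bp in genes with a promoter cluster in E14, it ranked 2 with 5.52 clusters per kb, between an exon of Mki67, a proliferation marker, with 6.58 and one of Nucks1 with 3.21. In 692 of the 843 no exonic cluster was found, where clusters within 500 bp of a transcript start counted as promoter clusters. Of 35 such exons with at least 5000 bp of coding sequence it also ranked 2, with Srrm2, a splicing factor, next at 2.89 per kb, and 18 had none. Long exons of Ahnak and Ahnak2 had few, with 1 cluster and 2 clusters.

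**Figure D5:**
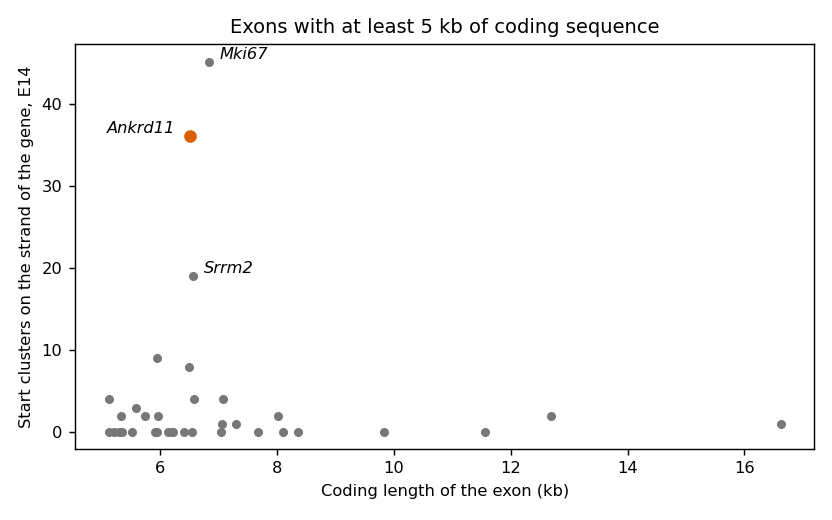
Exonic clusters in E14 on the strand of the gene against coding length (kb) for the 35 exons with at least 5000 bp of coding sequence in genes with a promoter cluster. Ankrd11 (orange) has 36 clusters, Mki67 has 45 and Srrm2 has 19, and 18 of the exons have 0.

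Genes whose products work with ANKRD11 were compared with all coding genes, of which 11167 of 21950 had a promoter cluster in E14. All 11 listed partners had a promoter cluster in every line, among them the p160 coactivators Ncoa1, Ncoa2 and Ncoa3, the deacetylases Hdac3, Hdac4 and Hdac5, and Trp53, whose product ANKRD11 binds. Of the 11, 1 had exonic clusters, the corepressor Ncor1 with 7 in each line, which is near the 13.3% of all coding genes with a promoter cluster that had one. The paralogue Ankrd12 had 3 exonic clusters in each line, all in 1 exon of 4658 bp. In E14 that exon had 0.644 clusters per kb, beside 5.52 for Ankrd11, which was chosen for its number of exonic clusters.

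The 6 listed cohesin genes all had promoter clusters, and 4 of the 6 had exonic clusters, beside the 13.3% of coding genes above. Their exonic clusters came to 33 for E14, 34 for A1 and 37 for C7, where all exonic clusters numbered 4260, 4311 and 4321. Nipbl, which loads cohesin, had 13 in each line, and Smc1a, a core subunit, had 12 in each. Smc3, its partner subunit, had 7, 8 and 10 in this order, and Rad21 had 1, 1 and 2. Stag1 and Stag2 had no exonic cluster. Of the neighbours of Ankrd11, Cdh15 had no cluster and Spg7 had 1, at its promoter, in each line.

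Ankrd11 had all of its exonic clusters in 1 exon, and 26 of the 196 other genes with at least 5 exonic clusters did so too (13.3%). Those with the most were Zfp990 with 14, Eif4a2 and mt-Nd5 with 9, and Cfl1 and Klf9 with 8. Their exons ranged from 1824 bp in mt-Nd5 to 3452 bp in Klf9, each shorter than that of Ankrd11. The 26 genes were not split by number of exons, and a gene with 1 exon has all of its exonic clusters there by definition. In the number of exonic clusters Ankrd11 ranked 4 among coding genes with a promoter cluster, after Mki67 with 52, Tet1 with 48 and Akap12 with 43, and 59 such genes had 10 or more. This rank restates the number by which the gene was chosen.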

How the data were processed

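Nuclear RNA of 8 libraries (3 of E14, 2 of clone A1 and 3 of clone C7) was profiled by CAGE-seq. According to the submitters' processing notes STAR 2.4.2a, SAMtools 1.3 and bedtools 2.17.0 were used with mm10, and the methods name CAGEr 1.28.0 for clustering. The deposited values are positions: the authors merged the libraries of each line and gave, for 3 tracks, the start, end, dominant TSS and interquantile region (quantiles 0.1 to 0.9) of each tag cluster. Every score is 0, so no signal or depth was used, and the minimum signal of a cluster is not given in the sources used here. No library could be left out.

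Clusters were assigned by the dominant TSS to promoter (500 bp around a transcript start, same strand), exon, intron or intergenic, in that order, with GENCODE vM21. Clusters of different lines were paired where they shared at least 1 bp of 1 strand. Backgrounds were computed over all clusters of the tracks. Bases were read from GENCODE transcripts and RefSeq promoter windows. Opposite-strand starts in other genes were counted at least 8 bp inside an exon and over 1000 bp from any start of that exon's strand. Python 3.11.15, NumPy 2.4.6, SciPy 1.17.1 and Matplotlib 3.10.9 were used, and the functions were tested on simulated clusters. Shares have Wilson intervals and medians order-statistic intervals, both at 95% and for counting error only. No p-value was computed, since a line is 1 merged track and clusters are not replicates.

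The gene, its members and all lists were chosen with earlier results of these data known. Named beside Ankrd11 were the 4 other genes richest in exonic clusters, Ankrd12, listed partners, cohesin genes, flanking genes, the knocked-out genes, cell markers, and the 5 genes with at least 5 exonic clusters whose share in 1 exon was closest to that of Ankrd11. Ahnak, Ahnak2 and Nucks1 were named after their values were seen. The alternatives concerned the gene window, strand, promoter window, transcripts, position, width, merging, overlap and exon length.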

Additional observations from a re-analysis of the deposited data

How the results depend on the processing

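Of 108 alternative values, 96 stayed within 1.5 times of a count or within the interval of a median or share. Merging clusters within 100 bp left 18 clusters in E14, 18 in A1 and 18 in C7, which follows from the gaps between them. A minimum interquantile width of 3 bp left 2 intronic clusters in each line, and 5 clusters with another dominant TSS in C7, since narrow clusters drop out. With a difference of more than 10 bp required, the dominant TSS differed in 0 clusters in A1 and in 0 in C7. Clusters of 10 bp or less cannot show such a difference. Taken between dominant TSSs, which adds the width of the clusters, the median gap was 84 bp in E14, 81 bp in A1 and 82 bp in C7, in each over 1.5 times the gap between spans. The share of pyrimidine-purine starts was 0% at the dominant TSSs of A1 and 0% at those of C7. The only E14 start with the step, at 122894134, was replaced in both clones by 122894128, which lacks it. Why that dominant TSS differed was not tested. The rank of exon 9 was 3 among exons of at least 3000 bp, below Akap12 and Mki67, and 2 with coding parts of exons, a setting chosen after seeing the data.

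No paired analysis was possible because the libraries of each line were merged in the deposited tracks, which also leaves no replicate to leave out. The tracks give no depth per line, so for the clusters of 1 bp that E14 lacks, absence cannot be told apart from a signal below the limit of calling, and the precision of widths and dominant TSSs is unknown.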
